A study of Saccharomyces cerevisiae with 6 samples.

Results

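The +2 nucleosome is the second nucleosome downstream of a transcription start site, inside the transcribed region of a gene. The +2 nucleosomes described here were yeast library fragments of 130 to under 160 bp, about the length of a nucleosome core, that the study's list places at gene position +2. Fragments marked as terminal, rDNA or telomeric were left out, as were fragments within 30 kb of a chromosome end and those in 3 regions of the rDNA array and of very abundant inserts. Of 772 fragments listed at +2, 473 had this length, 432 of these carried no such mark, and 316 lay away from the ends and regions left out. All 316 had 10 or more reads from either gel section, so the read minimum removed none. They represented 276 nucleosomes on all 16 chromosomes, out of 8026 distinct library fragments from 4148 nucleosomes. Each nucleosome was counted once, by its fragment with most reads.

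A nucleosome wraps DNA around a core of histone proteins in left-handed turns. In a closed circle, the wrapping fixes a linking number difference (∆Lk), which is left in the DNA after topoisomerases have relaxed the rest and the proteins have been removed. Circles that differ only in ∆Lk migrate to different heights in an agarose gel, so that the height reports how much supercoiling the nucleosomes had restrained. In yeast genes, nucleosomes form regular arrays that start at the +1 nucleosome beside the promoter, and the +2 nucleosome is the next that RNA polymerase II meets.

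Mononucleosome DNA had been cut out of chromatin of the S. cerevisiae strain FY251 with micrococcal nuclease, inserted into the circular minichromosome YCp1.3 and introduced into yeast cells. The transformants were pooled, and no group received a further treatment. The inserts were sequenced before electrophoresis (NucLib, 2 runs), from the gel section above the average Lk (Topo-seq-A, 2 runs, section A) and from the section below it (Topo-seq-B, 2 runs, section B). The gel was run once and the runs are repeat sequencing of the same DNA, so p-values over runs measure the spread of sequencing only. A fragment that reached the new circle carried only its own DNA, without its promoter or its neighbouring nucleosomes.

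The 6 deposited lists held between 851697 and 2073823 reads each, and the +2 nucleosome fragments took 4.38% and 4.47% of the reads of NucLib. Their share was 3.43% and 3.42% in the runs of section A, and 2.31% and 2.33% in those of section B. Single nucleosomes had between 11 and 16653 reads in section A (median 130) and between 10 and 9671 reads in section B (median 88). The coding annotation of R64 matched the label of the position. The midpoint lay a median of 149 bp downstream of the start codon for the 250 nucleosomes with a protein-coding gene, with quartiles at 87.9 and 186 bp. The corresponding median was 2.25 bp for +1 nucleosomes and 444 bp for +3 to +5 nucleosomes. Of the 250, 192 lay wholly in coding sequence, 47 in part and 11 not at all. Another 25 nucleosomes were at +2 of a noncoding transcript only, and 1 had a transcript whose name could not be read.

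The sequences below belong to the 4 least negative and the 4 most negative +2 nucleosomes among those read 100 times or more per section and placed by both runs on 1 side of the library average. They are shown because they mark the range that is described afterwards. Each is read 5′ to 3′ on the strand of its gene from the R64 reference, and capitals mark runs of at least 5 A or at least 5 T. The 4 least negative were these:
MIS1: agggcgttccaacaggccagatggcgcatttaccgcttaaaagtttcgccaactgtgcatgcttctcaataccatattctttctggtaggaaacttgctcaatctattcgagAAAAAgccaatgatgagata
YOR012W: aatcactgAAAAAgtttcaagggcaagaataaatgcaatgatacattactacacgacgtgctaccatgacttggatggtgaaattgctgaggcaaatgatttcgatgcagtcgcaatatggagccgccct
SPE4: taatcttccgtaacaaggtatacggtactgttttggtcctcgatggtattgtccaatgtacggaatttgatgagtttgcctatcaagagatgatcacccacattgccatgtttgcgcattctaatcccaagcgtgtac
TOD6: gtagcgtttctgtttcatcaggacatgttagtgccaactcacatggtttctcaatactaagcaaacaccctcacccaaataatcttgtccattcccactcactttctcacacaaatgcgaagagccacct
MIS1 was at chrII:411087-411218 and TOD6 at chrII:117608-117737, both on the forward strand. YOR012W was at chrXV:356686-356815 on the forward strand and SPE4 at chrXII:433449-433586 on the reverse strand. All 4 lay wholly in coding sequence, and 2 of them held a run of at least 5 A.

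The 4 most negative were these:
SLY1: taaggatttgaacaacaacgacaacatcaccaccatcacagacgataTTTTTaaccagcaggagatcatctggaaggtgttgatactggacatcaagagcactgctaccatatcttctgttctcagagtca
ERT1: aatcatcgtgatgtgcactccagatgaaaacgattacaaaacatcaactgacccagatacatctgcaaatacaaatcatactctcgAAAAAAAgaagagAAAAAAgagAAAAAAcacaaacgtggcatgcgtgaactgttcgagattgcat
UPC2: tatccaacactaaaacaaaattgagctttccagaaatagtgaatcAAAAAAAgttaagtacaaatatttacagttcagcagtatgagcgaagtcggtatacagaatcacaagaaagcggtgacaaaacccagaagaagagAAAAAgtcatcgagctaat
DBF20: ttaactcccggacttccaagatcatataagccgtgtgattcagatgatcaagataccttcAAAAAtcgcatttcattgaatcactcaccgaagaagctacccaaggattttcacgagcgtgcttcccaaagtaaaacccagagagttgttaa
SLY1 was at chrIV:838478-838608, UPC2 at chrIV:889669-889827 and DBF20 at chrXVI:747444-747595, all on the forward strand, and ERT1 was at chrII:699803-699953 on the reverse strand. The fragments of SLY1 and DBF20 were wholly coding, that of ERT1 was 93.4% coding, and that of UPC2 was 48.4% coding with its midpoint 3 bp before the start codon. Each held at least 1 run of A or T, and ERT1 held 3, all of A.

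The ∆Lk of a fragment was computed from its share of reads in section A, on the scale that the study set by gel measurement, after subtraction of the mean over library fragments of the same length. More negative values stand for more restrained supercoils. Over the 276 +2 nucleosomes, ∆Lk averaged -1.264 (SD 0.231), with a median of -1.244, and 90% of them lay between the percentiles at -1.676 and -0.935. Run 1 alone gave a mean of -1.272 over 231 nucleosomes and run 2 alone -1.273 over 237, since each run by itself had to reach the read minimum. Of the 276, 132 were more negative than the library average, which is a constant of the study's scale. On this scale, 8020 library fragments averaged -1.252 (median -1.261). The 3191 of core length outside rDNA, telomeric and excluded regions averaged -1.282 (median -1.263). The scale also adds a term that falls with length, without which the +2 mean was -1.235. The count of 132 includes this term, and it was not set beside that of other classes. The extremes of the 276 were -0.565 for TAE1 and -2.489 for SLY1. TAE1 encodes an N-terminal protein methyltransferase acting on ribosomal proteins. The product of SLY1 acts in vesicle fusion between the endoplasmic reticulum and the Golgi. TAE1 rested on 44 and 13 reads and had a counting SD of 0.158, whereas SLY1 had 106 and 1584 reads and a counting SD of 0.04.

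Counting error accounted for part of the spread between genes. The counting SD of a nucleosome, which covers counting error only because PCR reads are not independent molecules, ranged from 0.00718 to 0.217 with a median of 0.0743. The mean squared counting error was 17.7% of the variance of ∆Lk over all 276 nucleosomes and 5.26% over the 121 that were read 100 times or more per section (deeply read). The SD of ∆Lk in these 121 was still 0.199. Between the runs, the values of 227 nucleosomes correlated with Pearson's r of 0.744, and those of the 121 deeply read ones with 0.881, which describes agreement across genes and not across samples. The runs put 178 of 227 nucleosomes, and 102 of 121 deeply read ones, on the same side of the library average.

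**Figure D1:**
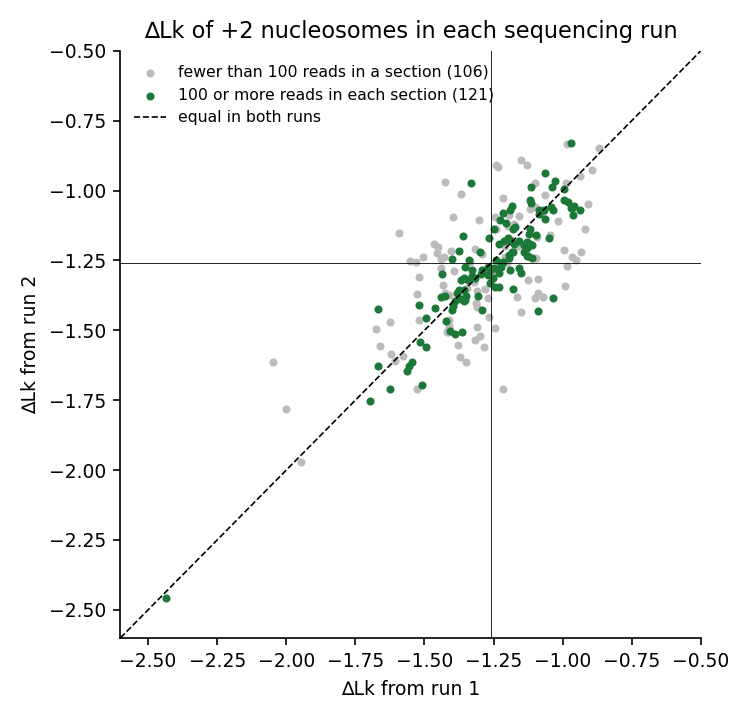
∆Lk of 227 +2 nucleosomes from run 1 (horizontal axis) and run 2 (vertical axis), with green points for the 121 deeply read ones (100 or more reads per section), thin lines at the library average and a dashed line of equal values. The points follow the dashed line, the green ones more tightly, and SLY1 lies alone at -2.434 and -2.457.

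Before any correction for length, +2 nucleosomes leaned towards section A. By edgeR's quasi-likelihood test over 8020 library fragments, 139 of the 276 +2 nucleosomes were called higher in section A and 13 higher in section B (adjusted p below 0.05), where the whole library had 27.8% called higher in A and 20.5% called higher in B. As shares of the 276 these were 50.4% and 4.71%. Core-length fragments outside repeats had 42.0% and 5.33% called. Both backgrounds count every fragment, whereas each of the 276 is the most-read fragment of its nucleosome. The median counting SD of ∆Lk was 0.0743 for the 276, 0.0901 for core-length fragments and 0.0978 for the library, so the shares are not like for like. The share called higher in A was 44.4% of -1 and +1, 51.3% of +3 to +5 and 48.3% of +6 and later nucleosomes, and these shares were not tested against each other. TMM scaling moved the median log2 A/B of all fragments by -0.19 and the split of calls among +2 nucleosomes to 100 and 20. DESeq2 with its own size factors called 48 and 6. With list totals, the median log2 A/B was 0.51 for +2 nucleosomes and 0.18 for all fragments. Library fragments took 93.2% and 92.8% of the reads in the lists of section A, but 80.2% and 81.0% in those of section B. Scaling by list totals carries this gap into the log2 A/B of every library fragment. Its part in the split of calls was not tested.

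**Figure D2:**
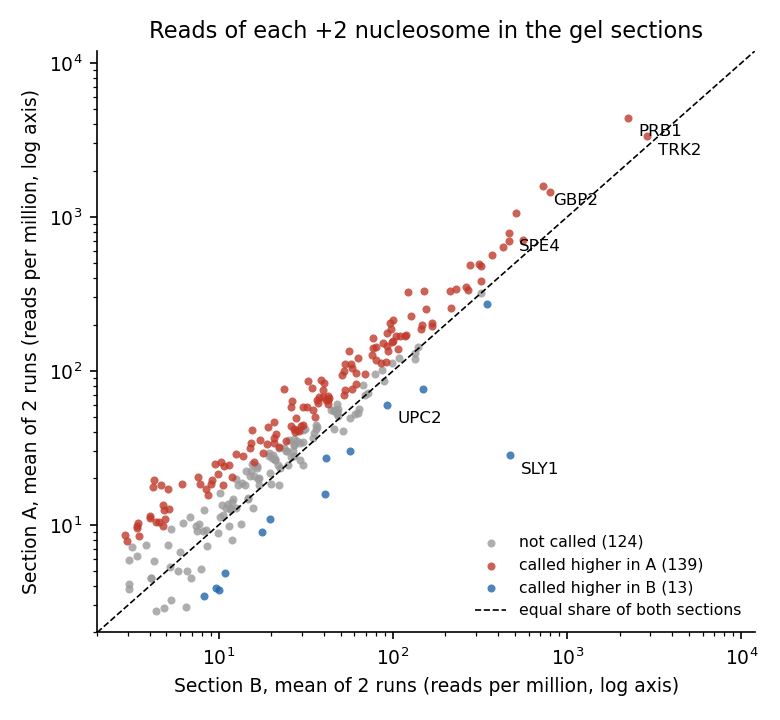
RPM of each of the 276 +2 nucleosomes in section B (horizontal) and section A (vertical), as the mean of 2 runs on log axes, coloured by the edgeR call. Most points lie above the dashed line of equal share and 139 are called higher in A, while SLY1 stands far below the line.

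When each fragment was compared with library fragments of its own length, the calls became 57 higher in A and 26 higher in B, or 20.7% and 9.42% of the 276. With TMM scaling edgeR called 45 and 30 in this comparison. DESeq2 called 12 and 14, so the excess of calls in A did not hold with it. The whole library had 18.2% and 14.0% called in this test, and core-length fragments outside repeats had 16.8% and 8.99%. These shares again count every fragment and were not tested against that of +2 nucleosomes. Those of under 140 bp had a mean log2 A/B of 0.06 (SD 0.89, n = 44), those of 140 to under 150 bp had 0.69 (SD 0.50, n = 81), and those of 150 bp or more had 0.49 (SD 0.61, n = 151). After the length steps, the means of ∆Lk in these length groups were -1.18, -1.224 and -1.309, and other core-length gene nucleosomes had -1.162, -1.234 and -1.323. The ∆Lk scale adds a term that falls with length, and without it the means of the +2 groups were -1.249, -1.208 and -1.245, so the order is built into the scale.

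The comparison of gene positions asked whether +2 nucleosomes restrained a different ∆Lk from others selected by the same rule. They did not differ detectably from any class. The mean was -1.269 (SD 0.22, n = 342) for -1 and +1 nucleosomes, and +2 minus this class was 0.00518 (95% interval -0.041 to 0.0514, Tukey's test after ANOVA, p = 0.992). For +3 to +5 nucleosomes the mean was -1.265 (SD 0.238, n = 511), and the difference was 0.00165 (-0.041 to 0.0443, p = 1). For +6 and later nucleosomes the mean was -1.27 (SD 0.209, n = 841), and the difference was 0.00689 (-0.0327 to 0.0465, p = 0.97). The intervals leave room for differences of up to 0.0514, beside the SD of 0.231 among +2 nucleosomes. The sign of each difference was not stable, since it turned with run 1 alone and with higher read minimums, while no such value passed the test. Of the 276 +2 nucleosomes, 27 had a fragment that was also counted in another class, among them PRB1, RSO55, IML1, NNF1 and TGS1. Without fragments listed under several nucleosomes, the differences lay between 0.00769 and 0.0142.

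**Figure D3:**
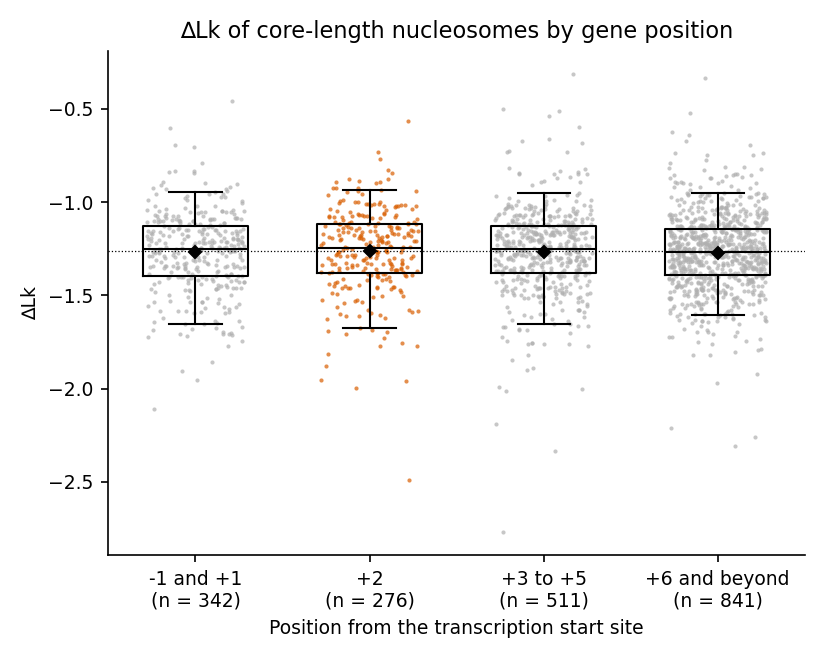
∆Lk (vertical axis) of core-length nucleosomes at 4 groups of gene positions, with a point per nucleosome, boxes from the 25th to the 75th percentile, whiskers at the 5th and 95th, a line at the median and a diamond at the mean. The means of all classes lie between -1.27 and -1.264, on the dotted line of the library average.

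The result depended on which +2 fragments were counted and how. When every listed +2 fragment of any length and place was a unit of its own, the mean was -1.349 (n = 713), and +2 was more negative than -1 and +1 by -0.0739 (Tukey's test p = 4.62e-05), than +3 to +5 by -0.0758 (p = 1.21e-06) and than +6 and later by -0.052 (p = 0.000583). Of these 713 fragments, 128 came from a single nucleosome, that of the peroxisomal lipase gene LPX1 on chromosome XV, and averaged -1.714 (SD 0.407), so the units of this test were not independent. Without them, the other 585 fragments averaged -1.27 (SD 0.31), and the differences were 0.00598, 0.00403 and 0.0278 (n = 585, Tukey p = 0.983, 0.993 and 0.172). These 585 came from 396 nucleosomes, so the units of this test were not independent either. The rule for +2 nucleosomes used here leaves that region out. Counting each nucleosome once at any length, but with the limits of place kept, gave -1.27 over 364 nucleosomes. Just inside the lower length limit, 35 fragments within 5 bp of it averaged -1.199 (SD 0.326), and 15 fragments within 5 bp outside it averaged -1.145 (SD 0.38). At the upper limit, 42 fragments inside averaged -1.323 (SD 0.148) and 33 outside -1.359 (SD 0.213).

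A few genes had a further core-length nucleosome in the library, which allowed a comparison within the gene. The +2 nucleosome was more negative than the -1 nucleosome in 8 of 8 genes, by a mean of -0.134 (SE 0.0323), with FAA3 at -1.071 against -0.893 and RIO1 at -1.507 against -1.438. FAA3 encodes a fatty acyl-CoA synthetase and RIO1 a kinase of ribosome maturation. Against the +1 nucleosome, +2 was more negative in 4 of 8 genes, with a mean difference of 0.0584 (SE 0.108). The widest gap of these was at SPE4, whose +2 nucleosome had -0.996 and whose +1 nucleosome had -1.713. Against the +3 nucleosome, +2 was more negative in 7 of 11 genes (mean difference -0.0908, SE 0.0877). It was more negative than the +4 nucleosome in 3 of 7 genes (-0.0126, SE 0.109) and than the +5 nucleosome in 3 of 8 genes (0.0944, SE 0.0586). PCL2 and UGX2 entered both of these comparisons with the same value (-1.24 and -1.333), so the comparisons were not separate. With so few genes, and 5 positions compared after the data had been seen, these are descriptions without a test.

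Among the deeply read +2 nucleosomes, the least negative was at MIS1, which encodes a mitochondrial enzyme of one-carbon metabolism. It had 60.3 and 68.9 reads per 1000000 of the list (RPM) in the runs of section A and 45.3 and 37.5 in those of section B. The sections did not overlap, and ∆Lk was -0.891 (counting SD 0.0563), with -0.968 and -0.829 in runs 1 and 2. SPE4, the gene of spermine synthase, had 823 and 755 RPM in section A and 460 and 464 in section B. Its ∆Lk was -0.996, and its log2 A/B for its length was 0.61 (edgeR adjusted p = 1.79e-12). TOD6 encodes a repressor of ribosome biogenesis genes. It had 123 and 102 RPM in section A against 102 and 94.4 in section B, so the lower run of A and the higher run of B were nearly equal. It was not called before the length correction (adjusted p = 0.136) and was called higher in A after it (adjusted p = 0.00267), with a ∆Lk of -0.998. At YOR012W, section A had 244 and 269 RPM and section B 226 and 206, and ∆Lk was -0.988. The noncoding transcript CUT401 had the largest lean of the 10 least negative, with 338 and 313 RPM in A against 126 and 118 in B. Its ∆Lk was -1.004, and both runs gave -0.995. The others of these 10 were BRL1, a nuclear envelope gene, RPL4A, FAP7, a gene of small ribosomal subunit maturation, RDH54, which encodes a DNA translocase of recombination, and TVP18, a Golgi membrane gene. Their ∆Lk lay between -1.008 and -1.013.

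SLY1 stood apart at the other end. It had 27.0 and 29.4 RPM in section A and 459 and 485 in section B, compared with 93.9 and 78.9 in NucLib. Section B thus exceeded both section A and the library before the gel in both runs, and its share of 5.60% in section A was the lowest of the 276. Its log2 A/B was -4.07 (edgeR adjusted p = 7.39e-31), and ∆Lk was -2.434 and -2.457 in the runs. Section B exceeded NucLib by more than section A fell short of it. The ∆Lk of SLY1 and its counting SD use the sections only and do not cover this gap. The cause of the gap was not tested. ERT1, the gene of a regulator of gluconeogenesis, followed among the deeply read nucleosomes with -1.708. It had 29.9 and 24.1 RPM in section A and 43.9 and 38.1 in section B. A shorter fragment of ERT1 with the same end had -1.687 from 24 and 34 reads. UPC2, the activator of sterol synthesis genes, had 60.3 and 60.6 RPM in section A against 84.4 and 101 in section B, and a ∆Lk of -1.673. DBF20, a kinase gene of the end of mitosis, had 43.4 and 37.7 against 58.1 and 45.6, and -1.628. It was not called before the length correction (adjusted p = 0.128) and was called higher in B after it (adjusted p = 0.000165). The rest of the 10 most negative were the phosphatase gene SIT4, the noncoding transcripts Unit372 and Unit021, FRE6 (a vacuolar ferric reductase), ADO1 (adenosine kinase) and NNF1 (a kinetochore subunit), from -1.61 to -1.523. All 10 were called higher in B for their length, whereas 4 were called before it: SLY1, ERT1, UPC2 and Unit372. The calls for the length use the same counts and lengths as the ∆Lk that picked these genes. At both ends of the range they are therefore no separate support.

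Genes were grouped by textbook role into 5 lists that held 162 of the 276 nucleosomes. Beside 132 of all 276, the numbers more negative than the library average were 14 of 38 for ribosome and translation, 15 of 29 for transcription, chromatin and RNA processing, 13 of 33 for DNA replication and cell cycle, 15 of 33 for metabolic enzymes and 17 of 29 for secretion and transport. The medians were -1.215, -1.266, -1.18, -1.191 and -1.3 in this order, beside -1.244 for all, and the ranges of the lists overlapped. For the length of the fragment, 7 of the ribosome and translation nucleosomes were called higher in A and 0 in B. Transcription and chromatin had 4 and 3, replication and cell cycle 8 and 3, metabolic enzymes 10 and 1, and secretion and transport 6 and 5. The 25 nucleosomes of noncoding transcripts had a median of -1.268, with 6 called higher in A and 4 in B. These edgeR counts stand beside 57 and 26 of all 276, and no list was tested against another. The numbers more negative than the library average include the term that falls with length, and the lists were not matched for length. RPL4A and RPL4B have identical fragments but enter ribosome and translation as separate nucleosomes, as ALD2 and ALD3 enter metabolic enzymes.

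The ends of the lists were often thinly read. TAE1 and RPL38, a large ribosomal subunit gene, bounded ribosome and translation at -0.565 and -1.61. SWI3, a subunit of the SWI/SNF remodeller, was the least negative of the transcription list at -0.731. It had 22.7 and 16.5 RPM in section A and 2.03 and 6.43 in section B, and 15 reads in all in section B. Run 2 alone gave it -1.017, and run 1 alone did not reach the read minimum. TGS1, the enzyme that trimethylates RNA caps, was the most negative of this list at -1.771, from 11 and 16 reads, and was not called (adjusted p = 0.327 before the length correction). MIP1, the mitochondrial DNA polymerase, had -0.888, and POL1, the catalytic subunit of DNA polymerase alpha, had -1.997. POL1 had 3.38 and 4.12 RPM in section A and 8.78 and 11.3 in section B, and was called higher in B (adjusted p = 0.00815). MIS1 and BPL1, the gene of biotin protein ligase, bounded the metabolic enzymes at -0.891 and -1.583. ANP1, a Golgi mannosyltransferase subunit, was the least negative of secretion and transport at -0.927, with 58.8 and 57.1 RPM in section A and 27.0 and 24.7 in section B. Among noncoding transcripts, CUT637 had -0.829 and Unit408 -1.69.

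**Figure D4:**
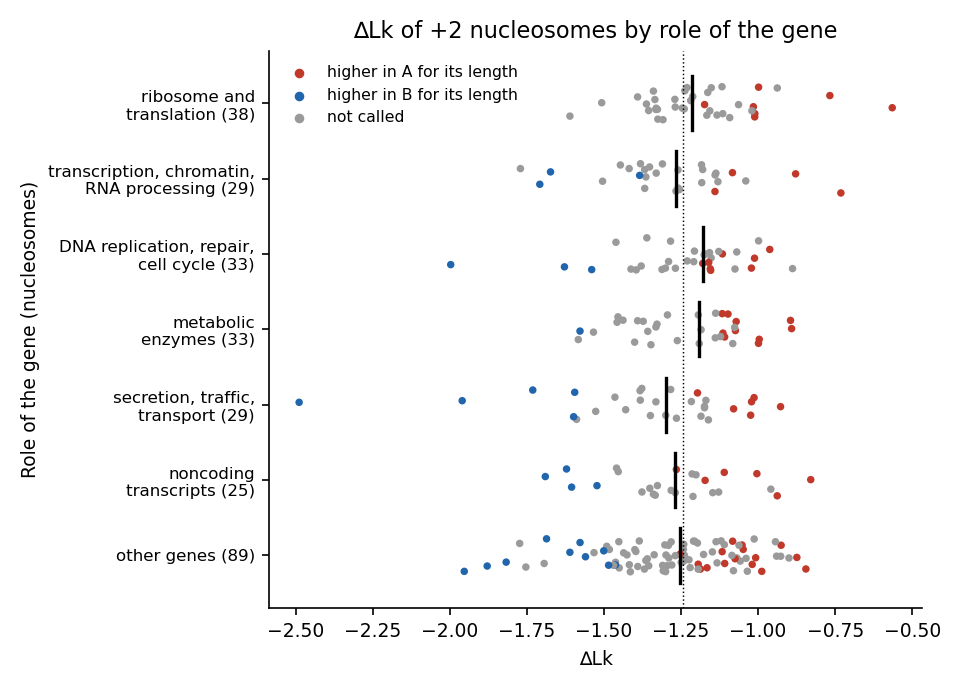
∆Lk (horizontal axis) of each +2 nucleosome by the role of its gene (vertical axis, with the number of nucleosomes), coloured by the edgeR call for its length, with a bar at the median of each list and a dotted line at the median of all 276. The lists overlap over most of their range, and SLY1 at -2.489 is the lowest point.

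Duplicated genes gave no internal comparison where their fragments were identical. The fragments of the ribosomal protein genes RPL4A and RPL4B had 0 differing bases, as had those of the aldehyde dehydrogenase genes ALD2 and ALD3, so that reads could not be assigned to 1 copy. RPL4A and RPL4B had 593 and 579 reads in section A and 335 and 330 in section B, with ∆Lk of -1.011 and -1.015. ALD2 and ALD3 had 262 and 268 reads in section A and 231 and 245 in section B, with -1.438 and -1.457. The near-equal values within each pair are therefore no comparison of separate genes. Each of the 4 genes is counted as a nucleosome of its own here, and without the 5 nucleosomes whose sequence recurs in the genome the median over 271 was -1.242. The fragment of the metallothionein gene CUP1-1 occurred more than once in the genome and had -1.299. YHR054C, in the same repeated region, had -1.577 from a sequence that occurred once.

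The +2 nucleosomes of IML1 and RRP4 are shown because each had also been tested alone in a minichromosome of its own:
IML1: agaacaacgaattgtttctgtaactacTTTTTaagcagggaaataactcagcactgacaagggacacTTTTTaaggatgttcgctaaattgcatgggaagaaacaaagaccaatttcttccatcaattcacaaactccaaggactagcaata
RRP4: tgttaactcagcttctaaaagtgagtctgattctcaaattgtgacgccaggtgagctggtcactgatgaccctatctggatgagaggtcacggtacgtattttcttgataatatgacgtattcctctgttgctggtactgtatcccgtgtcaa
The fragment of IML1 was at chrX:684491-684642 on the forward strand, with its midpoint at the start codon and 50% of it in coding sequence. It lay between the listed +1 and +2 nucleosomes and was also counted in the class of -1 and +1. IML1 encodes a subunit of a complex that restrains TORC1 signalling. It had 37.6 and 34.7 RPM in section A and 25.7 and 28.4 in section B, and a ∆Lk of -1.355 (counting SD 0.0717), with -1.312 and -1.418 in the runs. RRP4 was at chrVIII:234384-234536 on the reverse strand, wholly coding, and encodes an exosome subunit. It had 17.4 and 24.1 RPM in section A and 16.2 and 15.5 in section B, and a ∆Lk of -1.335 (counting SD 0.0947), with -1.44 and -1.244 in the runs. The runs of RRP4 thus lay on both sides of the library average. Neither was called in either section (adjusted p of 0.0971 for IML1 and 0.291 for RRP4 before the length correction, 0.71 and 0.939 after it).

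Of the 276 nucleosomes, 260 had 1 member fragment, 12 had 2 and 4 had 3 or more. Fragments of the same nucleosome differed in ∆Lk by a median of 0.0969 over these 16 nucleosomes and by up to 1.063. The greatest number came from PRB1, the gene of vacuolar proteinase B. Its main fragment had 16653 and 7484 reads and a ∆Lk of -1.166, and 13 others shared a start or an end with it at 24 to 81 reads each. Of these 13, 11 were more negative than the main fragment, with a median of -1.56. At TRK2, a potassium transporter gene whose +2 nucleosome lay upstream of the start codon, the main fragment had 12687 and 9671 reads and -1.169. There, 9 of the 10 fragments sharing an end with it were more negative, with a median of -1.473 at 34 to 119 reads. The counting SD of these scarce fragments reached 0.218 at PRB1. GBP2, which encodes an mRNA export factor, had 2 deeply read fragments that overlapped in part, with -1.083 from 5997 and 2424 reads and -0.796 from 3699 and 1746 reads. At RSO55, the fragment with 5520 and 2667 reads had -1.187 and one with 708 and 312 reads had -1.006. The counting SDs of these 4 fragments were 0.0353 or less. The main fragments of PRB1 and RSO55 each overlapped a neighbouring nucleosome too and were also counted at +3 to +5, with the same ∆Lk. Whether the scarce fragments are inserts of their own was not tested.

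**Figure D5:**
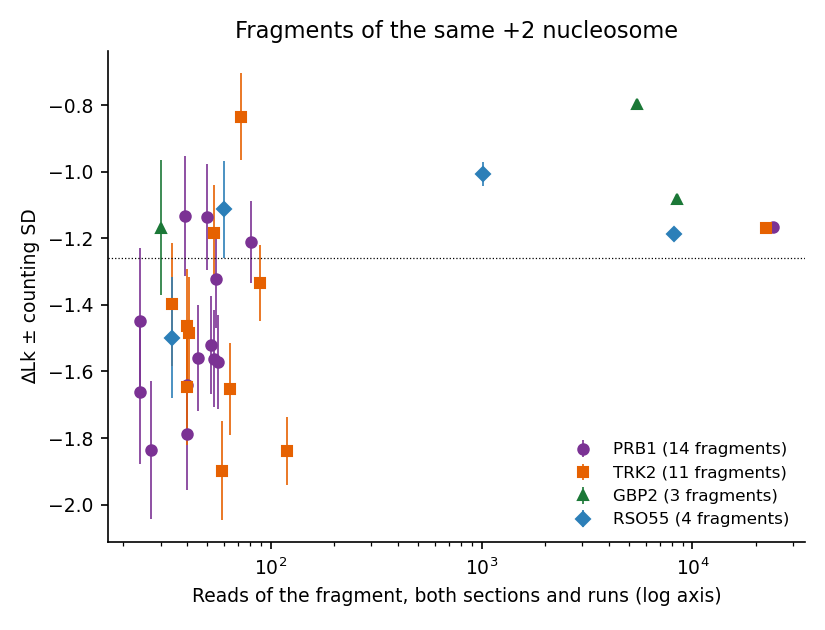
∆Lk with its counting SD (vertical axis) of each member fragment of 4 +2 nucleosomes against its reads over both sections and runs (horizontal log axis), with a dotted line at the library average. The main fragments of PRB1 and TRK2 lie at -1.166 and -1.169 at the right, and most of their scarce fragments lie lower. Those of PRB1 and RSO55 with most reads were also counted at +3 to +5.

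In base composition, +2 nucleosomes averaged 41.9% GC (SD 5.45), beside 40.0% for -1 and +1, 41.9% for +3 to +5 and 40.8% for +6 and later. A run of at least 5 A or 5 T (AAAAA or TTTTT, either of which is the other on the opposite strand) was present in 132 of 276, or 47.8%. The share was 57.0% for -1 and +1, 42.7% for +3 to +5, 43.6% for +6 and later, and 43.2% of 3191 core-length library fragments outside repeats. These class values were not tested.

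Within +2 nucleosomes, those with runs of A or T tended to be more negative. The 92 least negative nucleosomes held a run in 37.0% of cases, the 92 in the middle in 44.6% and the 92 most negative in 62.0%. Their mean lengths were 144.6, 149.1 and 150.6 bp. Their median reads in sections A and B were 132 and 75.5, 216 and 124, and 82 and 70. The part of length and depth in the shares with a run was not tested. In the same order, mean GC content was 42.7%, 42.6% and 40.4%, and the share of AA and TT dinucleotides was 18.0%, 17.9% and 20.1%. Spearman's rho with ∆Lk over the 276 nucleosomes was -0.24 for the number of runs, -0.196 for AA and TT, and 0.185 for GC. The rho of length was -0.319 with the term of the ∆Lk scale that falls with length and -0.0956 without it, and that of the number of runs was -0.223 without it. The number of runs gave -0.195 in run 1 and -0.169 in run 2. The nucleosomes share the same libraries, and these weak correlations are descriptions. The distance from the start codon had a rho of 0.133 over 250 nucleosomes and 0.00994 over the 109 deeply read ones. For TA dinucleotides, rho was -0.101 over all 276 and 0.00248 in the 121 deeply read nucleosomes, and for CA and TG together it was 0.115 and -0.0305.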

How the data were processed

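Per the labels and the methods, the authors digested FY251 chromatin with micrococcal nuclease, cloned the mononucleosome DNA in YCp1.3 and sequenced read pairs, which were trimmed with Cutadapt and aligned to R64 with Bowtie 1.1.2 (BWA, SAMtools and Picard are further tools in the submitters' processing notes). The deposited values are raw counts of reads per distinct fragment and run, 65536 fragments per list in order of count, so totals (851697 to 2073823 reads) are lower bounds.

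Positions, marks and nucleosome names came from the study's lists, and starts, counted from 0 in the files, are printed from 1. ∆Lk followed the study's steps: A/(A+B) of relative abundances as a Z-score, times 0.85, minus the mean of library fragments of equal length, plus 0.007 per bp below 144 bp, plus -1.26 (the library average). Counting SDs are analytic. Position classes were compared by Tukey's test (two-sided) with each nucleosome as 1 unit. The methods name ANOVA with Tukey's test too, but over library fragments. Sections were compared with edgeR 4.0.16 (quasi-likelihood test, list totals as library sizes, Benjamini-Hochberg over 8020 fragments read 10 times or more per section), also with an offset per length, and with DESeq2 1.42.0 (R 4.3.3). Other tools were Python 3.11.15, scipy 1.17.1, numpy 2.4.6, pandas 2.3.3 and matplotlib 3.10.9. Both scripts were tested on simulated data.

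Members, lists, tests and the naming rule were chosen with earlier results of these data known. The rule names the 10 least and 10 most negative nucleosomes read 100 times or more per section and placed by both runs on 1 side of -1.26, the ends of each list, the +2 nucleosomes measured singly, those with 3 or more fragments and near-identical gene pairs. Genes of the within-gene comparison and LPX1 stand outside it. Run numbers pair the samples as sequencing runs: over 1798 fragments, the deviations of same-numbered runs of the sections correlated with r = 0.236.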

Additional observations from a re-analysis of the deposited data

How the results depend on the processing

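The runs are repeat sequencing of the DNA of 1 gel, so nothing here shows how values would vary between cultures, transformations or gels, and the depth limits the thinly read genes most, where the counting SD reached 0.217. No difference between +2 and another class passed the test under any setting that counted each nucleosome once. The differences from -1 and +1, from +3 to +5 and from +6 and later turned to -0.00091, -0.00684 and -0.00417 at 50 reads or more per section and to -0.0131, -0.0195 and -0.0284 at 100 or more. Run 1 or run 2 alone gave ranges of -0.00077 to 0.00555, -0.00858 to 0.00266 and -0.00192 to 0.0123. The difference from +3 to +5 turned to -0.00061 with no shift by length and to -0.00351 with fragments of 140 bp or more. Of the settings chosen after seeing the data, each core-length fragment as a unit turned the difference from -1 and +1 to -0.0107, and each fragment of any length and place gave -0.0739, -0.0758 and -0.052, past the test, a result that needed the LPX1 fragments. The cause of the other turns was not tested.

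The mean ∆Lk of +2 nucleosomes was -1.272 to -1.273 with 1 run alone, -1.262 and -1.2595 at 50 and 100 reads or more, -1.269 as a mean over fragments, -1.095 without the length mean, -1.235 without the shift by length and -1.278 for 140 bp or more. Among settings chosen after seeing the data, it was -1.257 for fragments listed under 1 nucleosome, -1.279 per core-length fragment, -1.349 per fragment of any length and place, -1.2697 per nucleosome of any length and -1.2696 per fragment without LPX1.

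The count of 139 called higher in A and 13 in B became 100 and 20 with TMM, 48 and 6 with DESeq2, and 104 and 7 at 50 reads or more, over 182 nucleosomes. For their length, 57 and 26 became 45 and 30 with TMM and 12 and 14 with DESeq2. Leaving out 1 run of a section gave 114 to 121 and 9 to 10 calls, and for the length 40 to 49 and 18 to 24. With the replicate block, in which runs of the same number are paired, the counts were 142 and 13, and 58 and 26 for the length, within 1.5 times of those without it. The rho of TA and of CA with TG changed sign in the deeply read nucleosomes, to 0.00248 and -0.0305.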
